A study of Mus musculus with 5 samples.

Results

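The Obox genes encode a family of oocyte-specific homeobox transcription factors that lie in a cluster on mouse chromosome 7. The 6 symbols Obox1, Obox2, Obox3, Obox5, Obox6 and Obox7 were taken by name from a deposited expression table of 32285 gene symbols, and all 6 were present. RNA-seq had been made with Smart-seq2, a full-length protocol that keeps no strand, from mouse embryos at the 2-cell stage. The eggs came from hormone-stimulated females aged 6 to 9 weeks and were fertilised in vitro for about 6 h with sperm of males aged 12 to 16 weeks. The fertilised eggs were then cultured for 24 h in KSOM medium, in 3 libraries with 25 nM PNMC and in 2 control libraries with an equal volume of its solvent, DMSO. PNMC is not written out in the labels, which give no strain, no genotype, no number of embryos per library and no statement that the libraries came from separate cultures, so p-values here speak of the scatter among 5 libraries, part of which may be technical.

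Homeobox proteins bind DNA through a homeodomain, a fold of helices, the third of which reads the bases. In the mouse, the embryo's own genome is switched on in force at the 2-cell stage, while messages stored in the oocyte are being cleared. OBOX proteins are known as drivers of that genome activation in the mouse, and the family is described as redundant: Obox1, Obox2, Obox5 and Obox7 as maternal messages stored in the egg, Obox3 as a zygotic gene switched on in the 2-cell embryo. Obox6 has been described in early embryos and was kept apart from both classes here. These classes are background, since libraries of a single stage cannot show where a message was made.

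The deposited values are a normalised signal of a unit that the sources used here do not name, and its read depth is unknown. Signal sums ran from 446010 to 454548 per library, and between 17408 and 18595 symbols were above 0. The tissue label was checked with marker genes: all 9 oocyte and 2-cell markers found in the table were detected, with Bmp15, an oocyte growth factor, highest at a mean signal of 696. Of 14 cumulus cell markers, 4 (Ptx3, Amh, Foxl2 and Inhba) were at 0 in every library, and the summed signal of the list lay between 29.5 and 36.4 in controls and between 29.0 and 33.1 after PNMC, most of it from Nr5a2, which embryos express as well. Of 8 sperm markers, Prm1, Tnp2, Smcp and Spem1 were at 0 throughout, and the summed signal ran from 4.22 to 4.58 in controls and from 4.54 to 6.89 after PNMC. Of 7 blood markers, Hbb-bt and Cd3e were at 0 throughout, and the summed signal ran from 8.48 to 13.0 in controls and from 5.97 to 10.2 after PNMC.

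Apart from Obox6, the Obox genes described here are near copies of each other in coding sequence. The first set of sequences is a 45-base coding stretch, read 5′ to 3′ from GENCODE M21 transcripts, from the part of the homeobox that encodes the third helix, where the protein meets DNA. Capitals mark bases that differ from Obox5, the most abundant member.
Obox5: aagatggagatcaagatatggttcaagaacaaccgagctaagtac
Obox7: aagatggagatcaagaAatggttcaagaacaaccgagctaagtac
Obox2: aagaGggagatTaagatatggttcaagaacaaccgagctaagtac
Obox1: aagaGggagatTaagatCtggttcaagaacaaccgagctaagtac
Obox3: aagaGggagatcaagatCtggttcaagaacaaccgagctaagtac
Obox6: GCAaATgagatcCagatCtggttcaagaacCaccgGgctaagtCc
Obox7 differed from Obox5 at 1 of the 45 bases, Obox2 and Obox3 at 2, Obox1 at 3 and Obox6 at 10. The zygotic Obox3 was therefore no farther from Obox5 in this stretch than the maternal Obox1 was. The stretch was found in the annotated reading frame of 5 genes. For Obox2 it was found by matching the Obox1 stretch. No annotated protein-coding Obox2 transcript, read from its first coding base, held it in frame.

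Over whole coding sequences Obox6 was again the farthest from the others. The 6 maternal pairs were 92.9% to 98.5% identical, with Obox1 and Obox2 the closest, and the 4 pairs of a maternal gene with Obox3 were 93.1% to 94.0% identical. Pairs with Obox6 were 70.2% to 80.1% identical. All identities are a share of the shorter coding sequence of the pair. Coding lengths ran from 453 bases in Obox2 to 1041 bases in Obox6.

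A second set of sequences gives the 250 bases before the RefSeq transcript start (build GRCm38.p6). It is shown because the maternal genes share a run there that the Obox3 window lacks. Their coding sequences had a median identity of 95.37% to each other and 93.55% to Obox3. Capitals mark a 37-base run that the 4 maternal genes share and, after it, a 25-base run that Obox1, Obox3, Obox5 and Obox7 share.
Obox5, chr7:15750120-15750369, plus strand: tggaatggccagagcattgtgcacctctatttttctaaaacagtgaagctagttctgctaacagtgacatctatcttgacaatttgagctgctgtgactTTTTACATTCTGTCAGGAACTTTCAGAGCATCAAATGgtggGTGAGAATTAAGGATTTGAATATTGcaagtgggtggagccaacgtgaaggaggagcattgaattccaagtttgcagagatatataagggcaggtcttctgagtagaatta
Obox1, chr7:15547007-15547256, plus strand: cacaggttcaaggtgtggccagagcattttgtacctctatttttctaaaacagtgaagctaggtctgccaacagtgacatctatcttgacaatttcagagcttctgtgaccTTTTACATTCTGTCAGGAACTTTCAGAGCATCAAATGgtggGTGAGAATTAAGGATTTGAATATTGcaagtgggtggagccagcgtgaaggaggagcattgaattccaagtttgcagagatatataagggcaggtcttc
Obox7, chr7:14659458-14659707, plus strand: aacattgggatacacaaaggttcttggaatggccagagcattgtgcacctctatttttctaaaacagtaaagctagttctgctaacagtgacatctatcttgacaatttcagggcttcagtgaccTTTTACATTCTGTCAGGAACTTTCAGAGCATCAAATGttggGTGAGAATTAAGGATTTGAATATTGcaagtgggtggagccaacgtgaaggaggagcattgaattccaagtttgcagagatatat
Obox2, chr7:15388601-15388850, plus strand: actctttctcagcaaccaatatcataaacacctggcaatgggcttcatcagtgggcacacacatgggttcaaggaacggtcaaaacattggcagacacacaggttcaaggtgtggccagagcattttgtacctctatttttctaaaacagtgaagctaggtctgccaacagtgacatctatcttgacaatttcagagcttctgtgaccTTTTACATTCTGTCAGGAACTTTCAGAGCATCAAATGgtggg
Obox3, chr7:15639778-15640027, minus strand: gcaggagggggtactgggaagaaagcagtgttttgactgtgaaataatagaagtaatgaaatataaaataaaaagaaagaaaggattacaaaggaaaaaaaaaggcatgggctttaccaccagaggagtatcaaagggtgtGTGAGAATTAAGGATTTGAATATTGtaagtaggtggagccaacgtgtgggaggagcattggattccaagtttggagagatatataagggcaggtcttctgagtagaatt
No upstream window was available for Obox6, so it was not searched. The 37-base run was taken as the longest run common to the windows of Obox1, Obox2, Obox5 and Obox7. The 25-base run was taken in the same way from Obox1, Obox3, Obox5 and Obox7. Their presence in those windows was therefore fixed by the choice. Among 32851 RefSeq windows of this length, searched on either strand, each run was found in 4, and those were the windows it was taken from. Local alignment matched 136 to 236 bases between maternal pairs, at 91.0% to 100% identity. Obox3 matched Obox1, Obox5 and Obox7 over 114, 125 and 100 bases, at 90.0% to 92.8% identity. Its alignment to Obox2, whose RefSeq start lies only 5 bases after the 37-base run, covered 20 bases.

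The letters TATATAA, as in a TATA box, were found in the windows of Obox1, Obox3 and Obox5, at 12, 23 and 24 bases before the start, and in 3.04% of all windows (both strands searched). The Obox7 window ends in the first letters of this string. Relative to the shared run, the Obox2 window ends before the position that the string holds in Obox1 and Obox5. These windows do not show whether the string follows in Obox2 and Obox7. The letters TAATCC, the core bound by OBOX homeodomains in vitro, were found on the opposite strand of the Obox3 window, 162 bases before the start, and in 6.25% of all windows on either strand. GENCODE M21 places the start of 1 transcript inside the windows of Obox2, Obox3, Obox5 and Obox7, so part of what lies upstream in RefSeq is transcribed in that annotation. It places 0 of 6 Obox1 transcript starts inside the Obox1 window, which lies within the annotated spans of both Obox1 and Obox3. The sequences are a description and no binding was measured here.

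**Figure D1:**
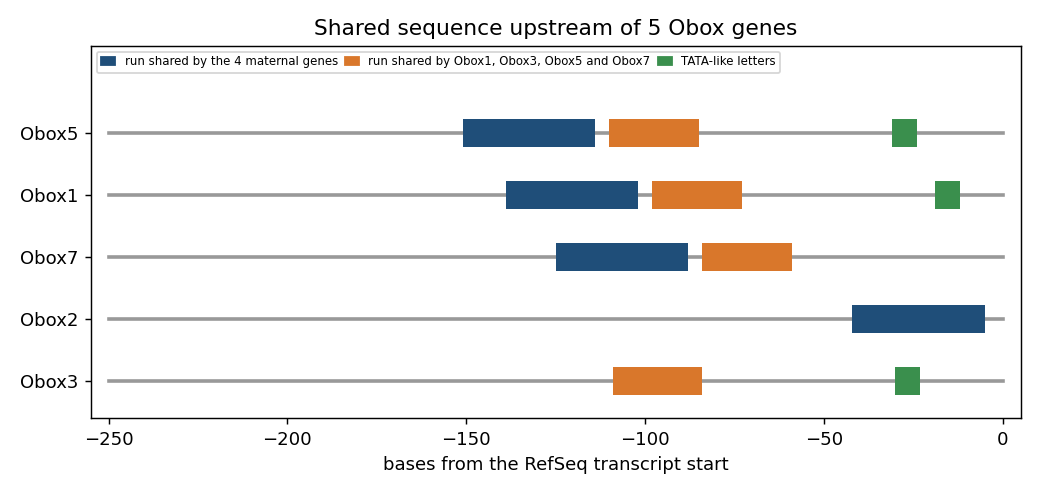
Position of shared sequence in the 250 bases before the RefSeq start of 5 Obox genes, in bases from the start, with blocks for the 37-base run, the 25-base run and the letters TATATAA. The 4 maternal genes carry the 37-base run, Obox3 does not, and Obox2 is shifted because its annotated start lies farther upstream.

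All 6 messages were abundant in the 2-cell embryo, and 1 maternal paralog made up most of the family's signal. Obox5 averaged 1255 ± 96.0 (SD, n = 5 libraries) and ranked between 31st and 38th of all symbols in a library, where the median gene tested had a mean of 7.09. Obox1 followed at 417 ± 42.3, then Obox6 at 175 ± 30.5, Obox2 at 134 ± 14.8, Obox3 at 110.1 ± 15.2 and Obox7 at 61.4 ± 8.22. Obox7, the lowest as deposited, still ranked between 1097th and 1587th. Obox5 carried 56.9% to 59.7% of the summed signal of the 6 genes in each library.

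Levels of different genes can be compared only per length, and whether the deposited signal is per length is not known. Divided by the length of 1 annotated transcript per gene, Obox5 was 2.49 times Obox1 and the order of means was as deposited. Divided by the length of all annotated exons of each gene, Obox5, Obox1, Obox6 and Obox2 kept their order above the other two, but the Obox3 mean lay below that of Obox7, at a ratio of 0.8997 against 1.34 by transcript length. As deposited, the ranges of Obox5, Obox1 and Obox6 over the 5 libraries did not overlap, and neither did those of Obox3 and Obox7. Obox6 and Obox2 overlapped, with Obox6 higher in 4 of 5 libraries. Obox2 and Obox3 also overlapped, with Obox2 higher in 4 of 5 libraries, so neither of these neighbour pairs differed beyond its spread as deposited. After division by either length both pairs kept 1 order in 5 of 5 libraries. Obox3 lay above Obox7 in 4 of 5 libraries by transcript length and in 2 of 5 by exon length, so their order is not settled.

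**Figure D2:**
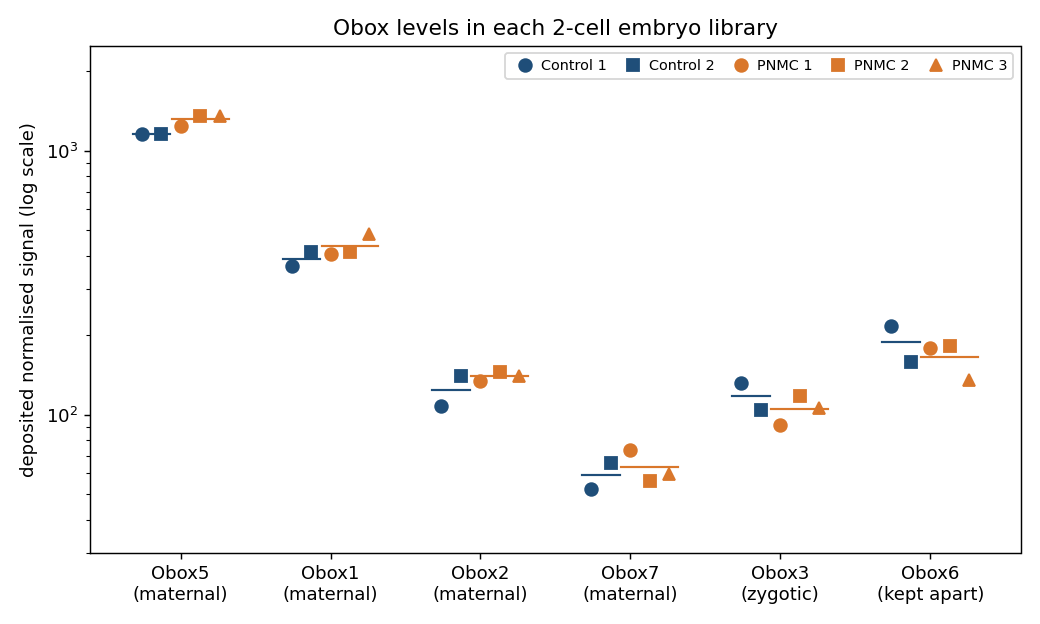
Deposited normalised signal on a log axis for the 6 Obox genes in 2 control libraries (blue) and 3 PNMC libraries (orange); horizontal lines are group means. Obox5 lies between 1159 and 1355 and Obox7 between 52.3 and 73.3, and for Obox5 alone all PNMC points lie above both controls.

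Among the maternal genes, Obox5 read 1159 in control library 1 and 1163 in control library 2. With PNMC it read 1248, 1355 and 1351 (libraries 1, 2 and 3, the order used throughout). All 3 PNMC values lay above both controls, and the controls differed from each other by 0.377% of their mean. The control mean was 1161 ± 3.09 (SD, n = 2) and the PNMC mean 1318 ± 60.7 (SD, n = 3), a ratio of 1.13. The log2(value + 1) change was 0.18 (SE 0.0893, 95% interval -0.011 to 0.37, limma adjusted p = 0.986 over 12734 genes), so it did not pass the threshold of 0.05. Of all genes tested, 7.97% had this arrangement. Among 8 sperm markers Prm2 had it at a far lower level, at 3.91 and 4.02 against 5.19, 5.79 and 4.54. Its part in the Obox5 values was not tested. The other sperm markers did not share it: Akap4 read 0.050 and 0.30 in controls and Tnp1 0 and 0.17, both with 0 in every PNMC library. Odf1 overlapped between groups, and the remaining markers were at 0 throughout.

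For Obox1 the controls read 366 and 413, against 407, 414 and 484 with PNMC. PNMC library 3 was the highest and control library 1 the lowest, while the remaining libraries lay within a narrow band, so the groups overlapped. The log2 change was 0.16 (SE 0.119, 95% interval -0.10 to 0.41). Obox2 values were 108 and 141 without PNMC, 134, 145 and 140.4 with it. Here control library 1 stood below the other 4 libraries, and control library 2 lay among the PNMC values. The log2 change was 0.18 (SE 0.148, 95% interval -0.14 to 0.50).

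Obox7, the least abundant maternal member, stood at 52.3 and 65.4 in controls, against 73.3, 56.3 and 59.8 with PNMC. The lowest value was control library 1 and the highest PNMC library 1, and the groups overlapped. Its log2 change was 0.10 (SE 0.179, 95% interval -0.29 to 0.48).

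The zygotic Obox3 stood at 131.5 and 104 in controls, against 91.3, 118 and 106 with PNMC. Control library 1 was the highest of the 5 and PNMC library 1 the lowest, and the groups overlapped. The log2 change was -0.16 (SE 0.163, 95% interval -0.51 to 0.19). Obox6 stood at 218 and 159 in controls, against 179.7, 182 and 136 with PNMC. Control library 1 was again the highest, the lowest was PNMC library 3, and the groups overlapped. Its log2 change was -0.17 (SE 0.17, 95% interval -0.54 to 0.19).

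None of the 6 genes passed limma's adjusted threshold of 0.05, where 0 of the 12734 genes tested did (0%), and none had an unadjusted p under 0.05, where 636 genes did (4.99%). Of those 636 genes 220 were higher and 416 lower after PNMC, a split that depends on scaling: it was 311 and 304 with quantile normalisation and 381 and 280 with each library scaled to its median. The adjusted p was 0.993 for each of Obox1, Obox2, Obox3, Obox6 and Obox7. Of the 6, only Obox5 had PNMC values entirely above the controls, as 7.97% of all genes tested did, and none had values entirely below, as 11.9% did (19.9% in either direction). The 95% intervals of all 6 lay within 1 log2 unit in either direction. The interval of Obox5 ended at a 1.30-fold increase, the highest upper bound was 1.41-fold for Obox2, and the lowest bound was 0.687-fold for Obox6. In bulk embryos, fewer cells carrying a message and less message per cell cannot be told apart.

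By class, the 4 maternal genes had higher means after PNMC and Obox3 and Obox6 lower means; the median change of the maternal genes was 0.17 on the log2 scale, that of all genes tested -0.048. That split changed without control library 1, which held the lowest value of Obox1, Obox2, Obox5 and Obox7 and the highest of Obox3 and Obox6. Between the 2 controls, Obox6 was 1.37 times and Obox3 1.27 times higher in library 1, and Obox2 was 1.30 times, Obox7 1.25 times and Obox1 1.13 times higher in library 2. Without control library 1, 2 of the 4 maternal genes stayed positive (Obox5 at 0.18 and Obox1 at 0.068), Obox2 was at -0.0068 and Obox7 at -0.060, while Obox3 and Obox6 were at 0.0094 and 0.053. Without control library 2, the changes ran from -0.40 in Obox6 to 0.37 in Obox2. Without PNMC library 1, Obox7 was at -0.012. The Obox5 change was 0.18 without either control. Summed, the 4 maternal signals reached 1685 and 1782 in controls, against 1862, 1970.2 and 2035 with PNMC, without overlap. Obox5 is the greater part of that sum and was alone among the 4 genes in having no overlap by itself. Of single genes tested, 7.97% lay entirely above the controls.

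**Figure D3:**
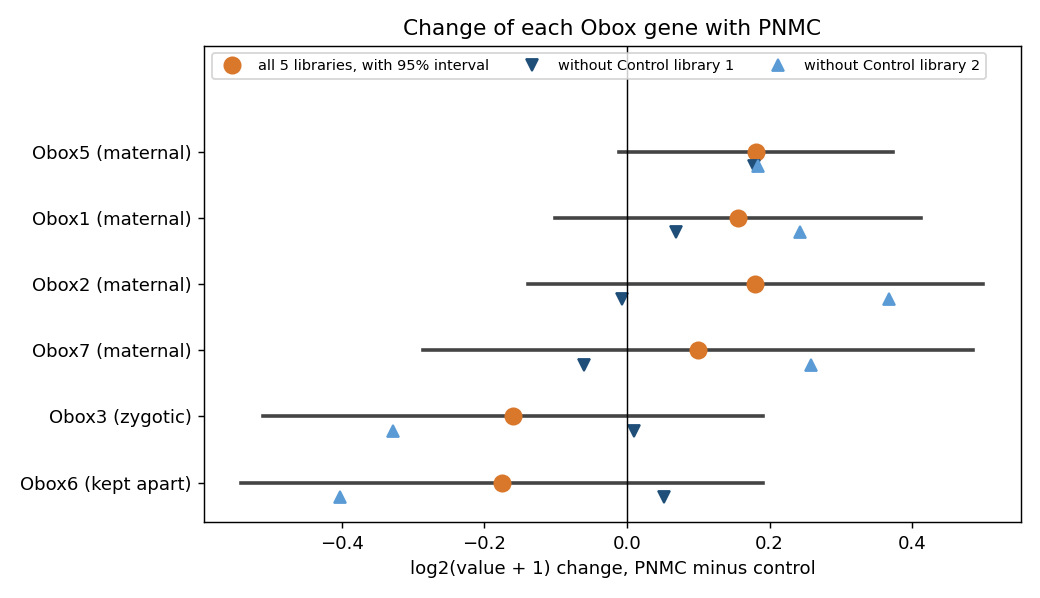
Change of each Obox gene with PNMC on the log2(value + 1) scale with limma's 95% interval (orange point and grey line), and the same value without control library 1 or 2 (triangles). The intervals of all 6 genes include 0, and the values of Obox2, Obox3, Obox6 and Obox7 change sign without control library 1.

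Setting the maternal genes against the zygotic gene inside each library removes any scaling between libraries. The mean of the 4 maternal signals was 3.20 and 4.29 times the Obox3 signal in controls, against 5.10, 4.19 and 4.78 times with PNMC. Control library 1 was the lowest, and PNMC library 2 lay below control library 2, so the groups overlapped. On the log2 scale the control mean of this ratio was 1.89 ± 0.30 (SD, n = 2) and the PNMC mean 2.22 ± 0.14 (SD, n = 3), a difference of 0.33 that was 0.12 without control library 1 and 0.54 without control library 2. No test was made of this ratio, whose terms were chosen as members of 1 family.

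Obox5 has the most weight in that mean. Its log2 ratio over Obox3 was 3.14 and 3.49 in controls, against 3.77, 3.53 and 3.67 with PNMC, and the groups did not overlap, as in 1 of the 15 pair ratios among the 6 genes and in 19.9% of single genes tested. Control library 2 and PNMC library 2 were the nearest values of the groups. Obox1 over Obox3 ran from 1.48 to 2.18 and overlapped between groups. Obox2 and Obox3 were close to parity: their log2 ratio was -0.28 in control library 1 and between 0.31 and 0.55 in the other 4 libraries. Obox3 exceeded Obox7 in every library, by 0.32 to 1.33 on the log2 scale, as deposited.

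**Figure D4:**
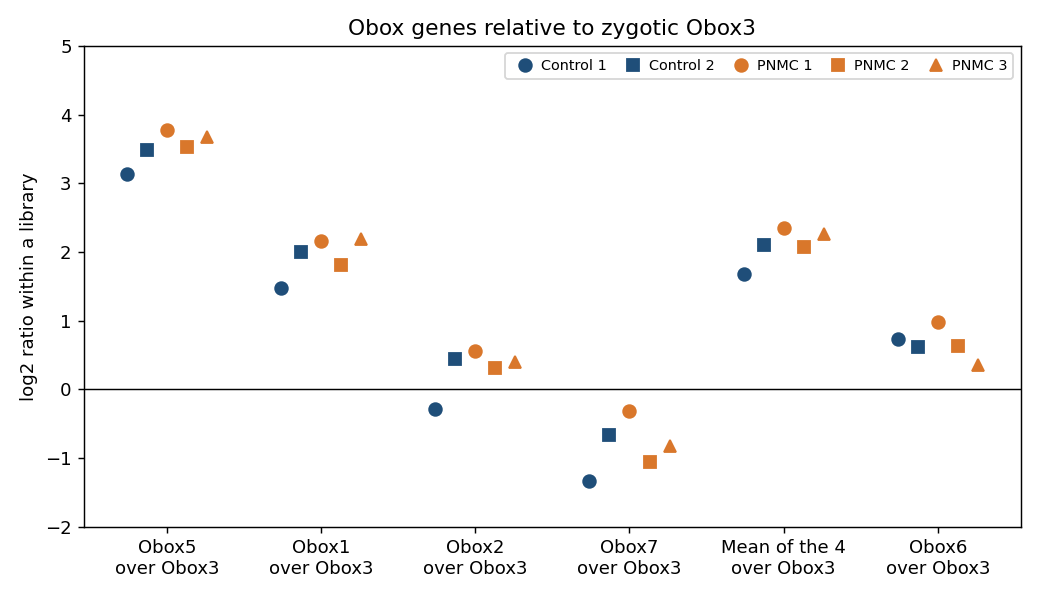
Log2 ratio to zygotic Obox3 within each library for the 4 maternal genes, their mean and Obox6; the line at 0 marks equal signal. Control library 1 is lowest in each comparison with a maternal gene, and Obox7 lies below 0 in all 5 libraries.

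Obox1, Obox2 and Obox5 varied less against each other than against Obox3 or Obox6. The log2 ratio of Obox5 to Obox1 varied with an SD of 0.10 over the 5 libraries, that of Obox1 to Obox2 with 0.12 and that of Obox5 to Obox2 with 0.13. Ratios of the same genes to Obox3 had SDs of 0.24 for Obox5, 0.29 for Obox1 and 0.33 for Obox2, and Obox1 to Obox6 had 0.39. The fourth maternal gene, Obox7, varied against Obox5 with an SD of 0.22. These SDs describe 5 libraries and were not tested against each other.

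Much of the Obox1 and Obox2 transcripts is the same. Of the 50-base windows of the Obox1 transcript, 58% also occur in an Obox2 transcript, and 60.1% of Obox2 windows occur in Obox1. At 100 bases the shares were 40.9% and 42.5%. A read from such a window cannot be given to one gene, and the sources used here do not say how the authors treated such reads. In GENCODE M21 the span of Obox1 (GRCm38, chromosome 7, 15388948 to 15556866, plus strand) overlaps that of Obox2 on the same strand and that of Obox3, which lies on the minus strand from 15479825 to 15639902. Adding Obox1 and Obox2 gave 474 and 554 in controls, against 541, 559 and 624 with PNMC, with overlap between groups. If the signal is not per length, this sum does not depend on how shared reads were divided between Obox1 and Obox2. It does depend on whether any were dropped.

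Obox5 and Obox7 shared less with each other: 8.7% of Obox5 windows and 15.6% of Obox7 windows at 50 bases, falling to 0.115% and 2.69% at 100 bases. Obox3 shared 1.55% of its 50-base windows with other members, but 32.7% with any annotated gene, mostly its pseudogenes, with 24.7% found in Obox3-ps3. The annotation holds 8 Obox3 pseudogenes and the expression table lists none of them, so whether their reads entered the Obox3 signal was not tested. Obox6 shared 5.02% of its windows, all with Obox6-ps1, the smallest share of the 6 genes.

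**Figure D5:**
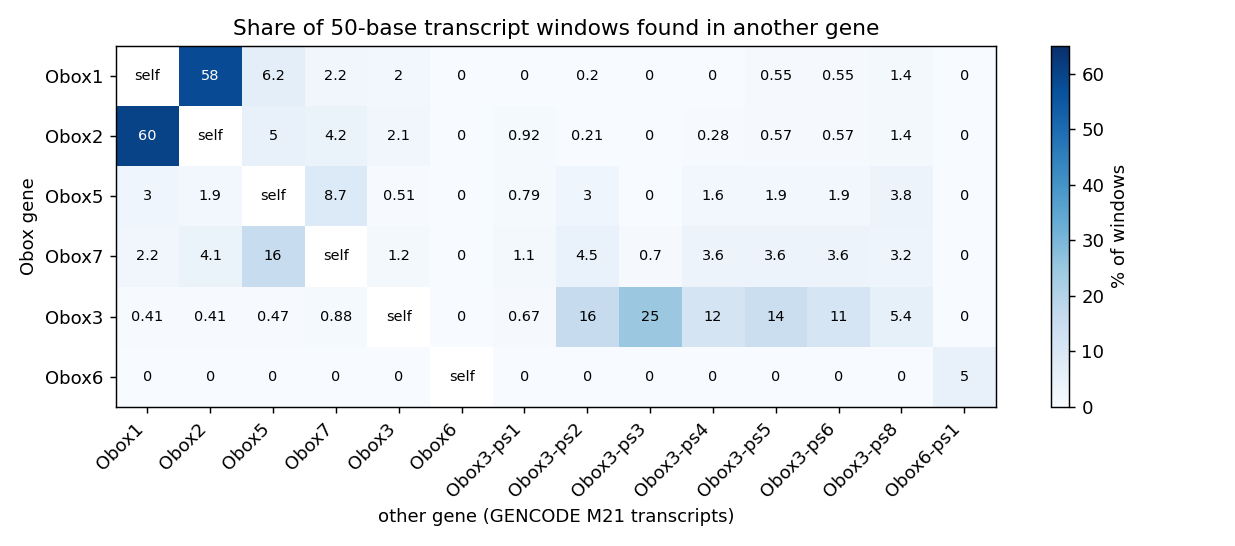
Percent of the 50-base windows of each Obox transcript (rows) found in transcripts of another gene (columns) in GENCODE M21, on either strand; darker blue is a larger share. Obox1 and Obox2 share 58% and 60.1% of their windows, and Obox3 shares windows mainly with its pseudogenes.

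Each member had neighbours with nearly the same level in every library. By root mean square difference of log2(value + 1) over the 5 libraries, the nearest gene to Obox5 was Gm1965 (0.0901), followed by the mitochondrial transcript mt-Nd4l (0.131). The nearest to Obox1 were D6Ertd527e (0.0813) and Rhpn2 (0.0842), and the nearest to Obox2 were Rpl13a, a ribosomal protein gene (0.067), and Dut, a dUTPase (0.0938). Kbtbd7 (0.0579) and Ppme1 (0.0918) lay nearest to Obox7. The zygotic Obox3 lay nearest to Ccne1, which encodes cyclin E1 (0.0831), and Ptma (0.0936), and Obox6 lay nearest to Trim43b (0.0801) and Cdc20, an activator of the anaphase-promoting complex (0.0851). The distance weighs level as well as pattern, and 10 genes lay within 0.25 of Obox5 against 189 of Obox7.

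Genes around the family in genome activation gave no call either. Of 43 transient 2-cell genes, which are transcribed at this stage, 37 were tested, and 12 had higher and 25 lower means after PNMC. Their median change on the log2 scale was -0.056, beside -0.048 for all genes tested, and it turned to 0.031 with each library scaled to its median. None had an unadjusted limma p under 0.05, none lay entirely above the controls and 3 of the 37 lay entirely below, beside 7.97% and 11.9% of all genes tested. The most abundant of them were the deubiquitinase gene Usp17lb, at 355 ± 42.4 in controls and 338 ± 29.9 after PNMC, and Zfp352. Zfp352 stood at 332 and 233 in controls, against 229.9, 258 and 275 with PNMC, so control library 1 was high as it was for Obox3. The smallest p values belonged to Spz1, at 9.26 and 3.88 in controls against 6.40, 14.8 and 11.4 with PNMC, and Gm12794, at 93.7 ± 4.66 and 80.2 ± 5.14.

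Of 34 regulators of genome activation, 33 were tested and none had an unadjusted limma p under 0.05. The median log2 change was -0.032, with 15 genes higher and 18 lower, and it turned to 0.052 with median scaling. Of the 33 genes 5 lay entirely above and 4 entirely below the controls, beside 7.97% and 11.9% of all genes tested. The most abundant were Btg4, an adaptor of maternal mRNA decay, at 3486 ± 122 and 3611 ± 268, and Dppa3, which protects DNA methylation in the zygote, at 3107 ± 76.3 and 3296 ± 157. Obox5 therefore stood below both in signal. The smallest p values were those of Rarg, a retinoic acid receptor, at 14.2 ± 0.843 and 9.91 ± 1.76, and Smarca4, a chromatin remodelling ATPase, at 5.89 ± 1.76 and 8.65 ± 0.825.

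Of 60 other homeobox genes, 37 were tested, and Otx2, Rhox6, Cdx1 and Meis3 were at 0 in every library. In deposited signal Obox5 was higher than any of them: the most abundant was Meis2, at 541 ± 29.0 and 529.7 ± 4.08, followed by the pluripotency factor Pou5f1, at 274 ± 28.8 and 299.9 ± 16.5. None passed the adjusted threshold, and 1 had an unadjusted limma p under 0.05 with a lower mean, as 3.27% of all genes tested did, while none did with a higher mean, as 1.73% did. That gene, Lhx1, stood at 1.37 and 2.20 in controls and was listed at 0, 0.915 and 0 with PNMC, close to the floor of the table. Pbx4, a cofactor of HOX proteins, averaged 3.34 ± 1.02 and 1.47 ± 0.727. The median log2 change of the list was -0.016, and it turned to 0.025 with quantile and 0.060 with median scaling.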

How the data were processed

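The authors deposited 1 table with a normalised signal for each of 32285 gene symbols in 5 libraries; the sources used here do not name its unit. The signal values are fractional and sum to between 446010 and 454548 per library, and low values show no common step of 1 read, so the depth is unknown and no counting interval is given. Tools listed in the submitters' processing notes are DESeq2 1.16.1, HTSeq, HISAT2 2.0.5 and Trimmomatic, with GRCm39 as the build and no role for each.

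Columns were matched to samples by title. Genes with a signal of at least 1 in at least 2 libraries were kept (12734), transformed to log2(value + 1), and compared (3 PNMC, 2 control) with limma 3.58.1 in R 4.3.3, with a mean-variance trend, robust variances and no covariate. Benjamini-Hochberg adjustment ran over all genes kept. The procedure was tested on simulated data. The design named a count test for the case of raw counts, which did not arise. As alternatives, the pseudocount was set to 0.1, the filter removed or raised to 10, and the fit repeated with quantile or median scaling, without trend and robust variances, with a replicate block and without each library in turn.

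Transcripts came from GENCODE M21 and upstream sequences from RefSeq, both on GRCm38 and not the build of the submitters' notes, and were compared with Biopython 1.88 in Python 3.11.15. Coding sequences, in place of the proteins the design named, were aligned globally and upstream windows locally. The 6 members and the gene lists were chosen with earlier results of these data known. Besides the members, the genes named are the 2 nearest to each member over the 5 libraries by root mean square difference of log2 values and, in each list, the 2 with the highest mean and the 2 with the smallest p. Marker genes are named as a check, and Prm2 was chosen after its values were seen.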

Additional observations from a re-analysis of the deposited data

How the results depend on the processing

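With 1 library left out, the count of genes past the adjusted threshold ranged from 0 to 1, the 1 being Gm13103 without PNMC library 1 (limma adjusted p = 0.0108), and it was 0 under each of the 7 other alternatives. None of the 6 Obox genes passed under any alternative, where their lowest limma adjusted p was 0.893. Unadjusted, limma's p for Obox5 was 0.0625 and became 0.0413 without a filter, 0.0479 with quantile and 0.0160 with median scaling; that of Obox2 became 0.0436 without control library 2. Obox1 and Obox5 kept a positive change under all 12 alternatives, over 0.068 to 0.24 and 0.16 to 0.27. Leaving out 1 library at a time, the change ran from -0.0068 to 0.37 for Obox2, from -0.33 to 0.0094 for Obox3, from -0.40 to 0.053 for Obox6 and from -0.060 to 0.26 for Obox7. The sign turned without control library 1 in these 4 genes and also without PNMC library 1 in Obox7 (-0.012), and the cause was not tested; a control group of 1 library is assumed to vary like the other group. The log2 ratio of maternal genes to Obox3 averaged 2.09 and became 1.72 with Obox6 added to the zygotic class and 1.22 with a geometric mean, which gives Obox5 less weight. Its difference between groups ranged from 0.12 to 0.54 with 1 library left out. The log2 ratio of the Obox3 mean to the Obox7 mean was 0.84 as deposited, 0.42 divided by transcript length and -0.15 divided by exon length, lengths chosen after seeing the data; the differing lengths alone make this change.

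With the replicate number as a block, 0 genes passed (lowest limma adjusted p = 0.148), and the changes were 0.16 for Obox5, 0.076 for Obox1, 0.18 for Obox2, 0.13 for Obox7, -0.17 for Obox3 and -0.037 for Obox6. PNMC library 3 has no partner and adds nothing to these values. The deviations of control and PNMC libraries with the same number correlated at -0.058 and -0.043 across 12734 genes. With 2 controls, their deviations from the control mean are mirror images. These correlations therefore cannot show whether libraries with the same number shared a culture or batch. The depth is unknown, so how far reads limit the lower members could not be given.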

Other observations

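Besides the 6 genes described, the table lists 2 more symbols of the family, chosen here after their values were seen. Obox8 stood at 63.4 and 23.8 in controls, against 26.3, 47.9 and 25.8 with PNMC. Its controls differed 2.66-fold, and the groups overlapped. Obox4-ps35, named as a pseudogene, stood at 50.4 and 36.8 in controls, against 31.7, 31.5 and 35.8 with PNMC, so all PNMC values lay below both controls, as in 11.9% of all genes tested. Its log2 change was -0.38 and did not pass (SE 0.194, limma adjusted p = 0.988). Control library 1 was the highest of the 5 libraries for both, as it was for Obox3 and Obox6.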
